A study of Caenorhabditis elegans with 4 samples.

Results

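NHR-23 sites on chromosome III were the regions of this chromosome in a list of candidate binding sites of NHR-23, mapped in L3 larvae of Caenorhabditis elegans by chromatin immunoprecipitation with sequencing (ChIP-seq). They were taken as every row of the authors' combined peak list on chromosome III, with rows that repeat a start and an end dropped: 1057 rows gave 1050 distinct sites, of 6142 distinct sites in all. Membership follows from position alone, so no measured value of a site decided whether it was included. The chromosome and the tests were nevertheless chosen with earlier results of these data known. The worms were hermaphrodites of strain OP43, grown at 20 °C and fixed with 2% formaldehyde. They were unc-119(ed3) mutants with the transgene wgIs43, in which nhr-23 is joined to TY1, EGFP and FLAG tags and unc-119 is included, and the fusion protein was recovered through its GFP tag. Both ChIP samples and both Input samples come from this strain, so the controls carry the transgene and the unc-119 mutation too, and no other genotype stands beside them. Peak lists were used for ChIP replicates 1 and 2 and for the list that combines them; Input, the chromatin set aside before the immunoprecipitation, was not analysed here. The labels do not say whether the replicates came from separate cultures, so their differences may be technical.

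NHR-23 is a nuclear hormone receptor related to vertebrate ROR and insect DHR3. It is required for moulting, the repeated replacement of the cuticle at the end of each larval stage, and acts in the epidermis that makes the new cuticle. In C. elegans the middle of each autosome is rich in genes and recombines little, while the arms hold more repeats and recombine more. Chromosome III is an autosome that carries, among others, the Hox genes lin-39 and mab-5 and the unc-119 gene, the marker with which the transgene was selected. The transgene was introduced by bombardment, so its place and copy number need not be those of the native gene, and whole larvae were used, so a site cannot be tied to a tissue. The labels list no mutation of the native nhr-23. No sequence is shown and no gene is named for a site, because no genome or annotation of the files' build, WormBase WS220, was used here, and the unc-119 locus was not placed among the sites for the same reason.

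Each list numbers its peaks from 1, and a low number is read as strong. The authors' score cannot serve for this, since it takes 1 value throughout the combined list. The lists of replicates 1 and 2 held 5359 and 4536 distinct regions on chromosome III, of 29981 and 25124 in all. How many reads lie behind each list is unknown. The commonest width, 380 bp, was shared by 610 of the 1050 sites (58.1%, against 58.7% on the other nuclear chromosomes), 422 were narrower and 18 wider, and all sites together covered 327 kb of the chromosome. Peak width followed the peak number: when the combined list was divided by number into 4 groups of equal size, 1.85% of the sites of chromosome III in the strongest group had the common width, and 96.7% in the weakest.

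The strongest sites of chromosome III stood at the top of the whole list. Of the first 10 combined peaks 4 lay on this chromosome, and the first of them, from 3867350 to 3867726 (all positions in WS220), came second in the combined list, led replicate 1 and had number 3 in replicate 2. Next came sites from 7854464 to 7854775 (combined number 5), from 5678932 to 5679243 (6) and from 10758966 to 10759348 (7), each among the first 8 peaks of both replicates. These 4 lay far apart, 1 in the left, 2 in the central and 1 in the right of 3 parts of equal length.

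A gap in numbering separated these from the next site, from 4899724 to 4900092, which had combined number 13 and replicate numbers 11 and 19. The sixth lay close to the right end, from 12904955 to 12905239, with combined number 14 and replicate numbers 27 and 11. The seventh, from 3456250 to 3456553, had combined number 19 and replicate numbers 25 and 23. All 3 were among the first 27 peaks of both replicates. The next sites were from 4475492 to 4475769 (combined number 25), from 5018136 to 5018429 (28) and from 13643470 to 13643816 (29). The last of these lay 99.0% of the way along the chromosome, so strong sites reached the very end of the right arm.

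Over the 20 strongest sites of chromosome III, the combined number went up to 81, the replicate 1 number from 1 to 202 and the replicate 2 number from 3 to 143. The largest disagreement among them was at the site from 3801335 to 3801760, with number 202 in replicate 1 against 28 in replicate 2. The centres of the matching replicate peaks were 0 to 38 bp apart, with a median of 6.75 bp. Of the 20, 7 lay in the left, 8 in the central and 5 in the right part. Close pairs were present even at this level: the sites from 1925003 to 1925552 (number 32) and from 1926426 to 1926744 (number 81) lay 1308 bp apart, centre to centre. Another close pair was the site from 8795581 to 8796019 (number 38) with a neighbour of number 570, 942 bp away.

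The comparison with the other nuclear chromosomes asked whether chromosome III held more sites, or stronger ones, than its length would give. It held more. The density was 76.2 distinct sites per Mb, against 58.9 on chromosomes I, II, IV, V and X together, a ratio of 1.29 (95% interval 1.21 to 1.38, exact two-sided binomial test, adjusted p = 7.76e-13). These other chromosomes differed, with 69.4 per Mb on X, 67.5 on II, 64.4 on I, 51.1 on IV and 46.3 on V. The excess over X and II was thus smaller than the pooled ratio gives. The lists of single replicates gave ratios in the same direction: 1.27 with the best 6178 peaks of either replicate, and 1.37 and 1.38 with all peaks of replicates 1 and 2. In each of these 5 lists chromosome III was the densest of the 6 nuclear chromosomes. The test takes sites as independent, although they cluster. With whole chromosomes as units, 1 chromosome against 5 allows no p below 0.167.

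The sites of chromosome III were not shown to be stronger than those elsewhere. In the strongest of the 4 groups, which holds 25% of all sites by construction, were 271 of its 1050 sites (25.8%, 95% interval 23.2 to 28.6), against 24.8% on the other nuclear chromosomes (23.6 to 26.0; Fisher's exact test, two-sided, adjusted p = 0.843). The groups from strong to weak held 271, 251, 255 and 273 sites. At the very top the share was larger, 7 of the first 20 combined peaks (35%) and 23 of the first 100 (23%), but the exact intervals, 15.4 to 59.2 and 15.2 to 32.5, include the 17.1% that chromosome III has of the whole list. The replicates had 21 of 94 and 20 of 99 distinct nuclear regions of their first 100 peaks on this chromosome. Of their first 50 peaks they had 14 of 48 (29.2%, 16.95 to 44.1) and 15 of 49 (30.6%, 18.3 to 45.4), and the second interval lies above both 17.1% and the 18.1% of the whole replicate 2 list; it is 1 of many such intervals and was not adjusted for that. X had more of the first 100 combined peaks than chromosome III, with 31.

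**Figure D1:**
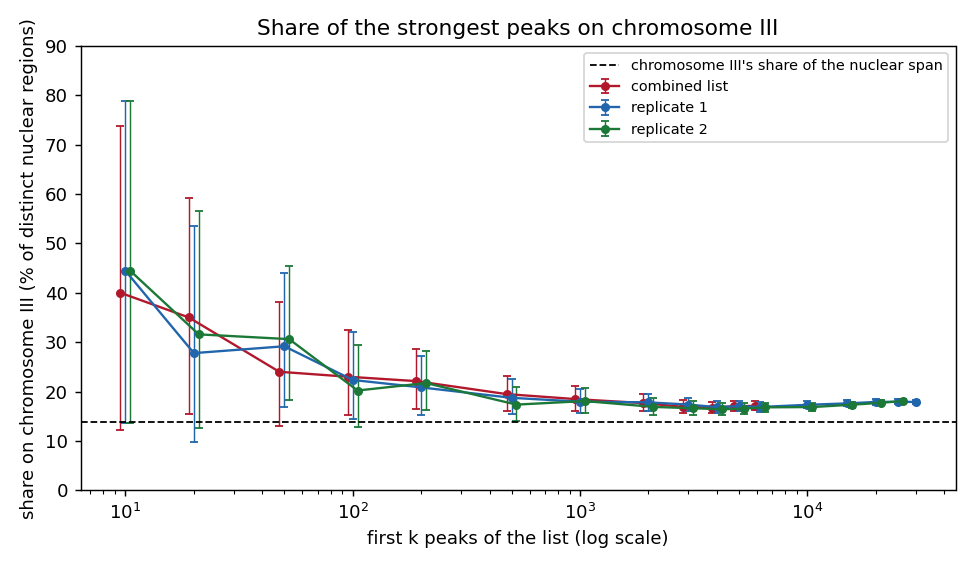
Share of distinct nuclear regions that lie on chromosome III (y axis, %) among the first k peaks of each list (x axis, log scale), with exact 95% intervals that cover counting error only and a dashed line at chromosome III's 13.8% of the nuclear span; points of the lists are set slightly apart. The share falls from 40% of the first 10 combined peaks to 17.1% of the list, with wide intervals at the left, and the replicates end at 17.9% and 18.1%.

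Along the chromosome the density was higher in the middle than in the outer parts. The central part, from 4593604 to 9187206, held 440 sites (95.8 per Mb) and the outer parts held 610 (66.4 per Mb), a ratio of 1.44 (1.27 to 1.63, exact two-sided binomial test, adjusted p = 1.90e-08). Of all combined sites, 41.7% lay in the central part of their chromosome, against 41.9% of those of chromosome III. The same ratio was 1.43 on I, 1.55 on II, 1.45 on IV and 1.92 on V, but 1.02 on X. A denser centre was thus shared by the autosomes. On chromosome III the ratio was 1.47 and 1.45 with the best 6178 peaks of replicates 1 and 2 and 1.26 with all peaks of replicate 2. With all peaks of replicate 1 it was 1.06 and no longer passed (exact binomial test, adjusted p = 0.0957). The outer parts were unlike each other: the left held 277 sites and the right 333, a right to left ratio of 1.202 (1.02 to 1.42). This ratio, described after the counts were seen, was 1.195 and 1.199 in the best 6178 peaks of the replicates and 1.09 and 1.15 in their full lists. It was not computed for the other chromosomes, but their ends were unequal too. The first and last 5% of the span held 51 and 39 combined sites on I, 36 and 52 on II and 46 and 18 on IV. They held 50 and 37 on V and 30 and 57 on X, beside 34 and 50 on chromosome III.

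In steps of 1 Mb, the first 3 bins held 53, 39 and 47 combined sites. The next 2 held 80 and 84, so the rise began within the left part. The sixth bin, from 5000001 to 6000000, held 118 sites, the seventh 77, the eighth 93 and the ninth, from 8000001 to 9000000, 122. The profile thus had a peak on either side of a lower bin. The bins after it held 79, 80, 59 and 58, and the last, shorter bin of 0.781 Mb held 61, or 78.1 per Mb, so that the density was higher again at the right end.

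The sixth and ninth bins each held more sites than any of the 84 complete 1 Mb bins of the other nuclear chromosomes, which ranged from 8 to 101 with a median of 60. In the best 6178 peaks of replicate 2 they also exceeded every other bin (113 and 116 against a highest of 104). In those of replicate 1 the ninth did (123 against 121) and the sixth, with 119, did not. All peaks of the replicates gave 489 and 462 for these bins in replicate 1 (highest elsewhere 429) and 448 and 447 in replicate 2 (412). The seventh bin was lower than both in each list, with 68 and 78 in the best 6178 and 312 and 297 in all peaks. The 2 full bins did not each owe their count to a single spot: their 100 kb steps held 5 to 23 sites in the sixth and 7 to 23 in the ninth, with a median of 11.5 in both.

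**Figure D2:**
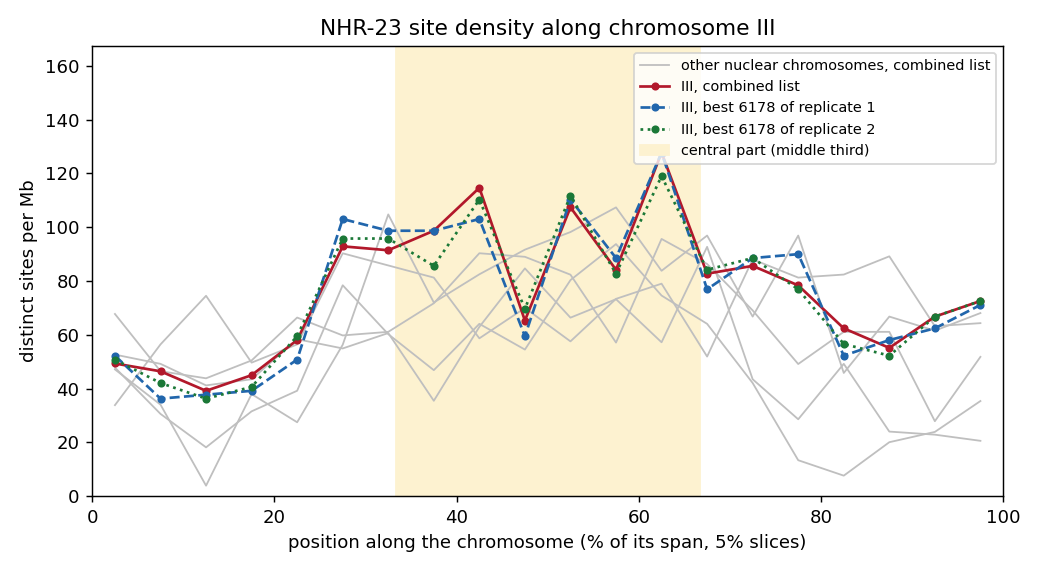
Distinct sites per Mb (y axis) in 5% slices of the chromosome (x axis, % of its span) for chromosome III in the combined list and in the best 6178 peaks of each replicate, with the other nuclear chromosomes of the combined list as grey lines and the central part shaded. The 3 lines of chromosome III follow each other, from 39.2 sites per Mb near the left end to 128 per Mb in the slice from 60 to 65% of the combined list, with a low slice of 65.3 per Mb from 45 to 50%.

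Strength was similar in the 3 parts. The median combined number was 3216 in the left, 3058.5 in the central and 3151 in the right part, and 24.9%, 26.4% and 25.8% of their sites were in the strongest group. Among the 1 Mb bins the median number ranged from 2623 in the thirteenth to 3484 in the fourth, and neither full bin stood at an end of this range (3091.5 and 2991.5). The share of sites in the strongest group varied more between bins, from 9 of 53 in the first (16.98%) to 14 of 39 in the second (35.9%). Close neighbours were more frequent in the centre, with 25.7% of sites within 1 kb of another, against 20.2% in the left and 17.1% in the right part; these shares are a description without a test.

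Spacing on chromosome III was compared with that elsewhere, without adjusting for its higher density of sites. The values therefore do not show whether its sites were more or less clustered than at equal density. The lower and upper quartiles of the distance were 1911 and 16697 bp, and the median distance from 1 centre to the next was 5615 bp, against 5844 bp on the other chromosomes. A neighbour within 1 kb was present for 226 sites (21.5%, 19.1 to 24.1), beside 21.7% over all combined sites and 21.7% on the other nuclear chromosomes (20.6 to 22.9; Fisher's exact test, two-sided, adjusted p = 0.934). The direction of this small difference turned without replicate 1 or 2, when it was 2.84 and 2.01 percentage points higher on chromosome III. When sites up to 2 kb apart were joined into runs, 605 sites stood alone, 117 pairs formed, and 58 runs of 3 or more held 211 sites (20.1%, against 19.8 to 24.7% on the other chromosomes). The longest run had 7 sites over 7208 bp, from 13717519 to 13724726, while the longest runs elsewhere had 7 to 16.

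The strength of close neighbours was compared with that elsewhere, without a test. Of 270 adjacent pairs within 2 kb, 19 joined 2 sites of the strongest group (7.04%, against 6.25% elsewhere), 99 joined 1 such site to a weaker one (36.7%, against 35.5%) and 152 joined weaker sites only (56.3%, against 58.2%). The site with number 2 in the combined list had its nearest neighbour 1106 bp away with number 5269, and the site with number 14 had one at 1739 bp with number 5744. From the strongest to the weakest group, the share of sites with a neighbour within 1 kb was 18.5%, 24.7%, 20.8% and 22.3%, with no steady trend.

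**Figure D3:**
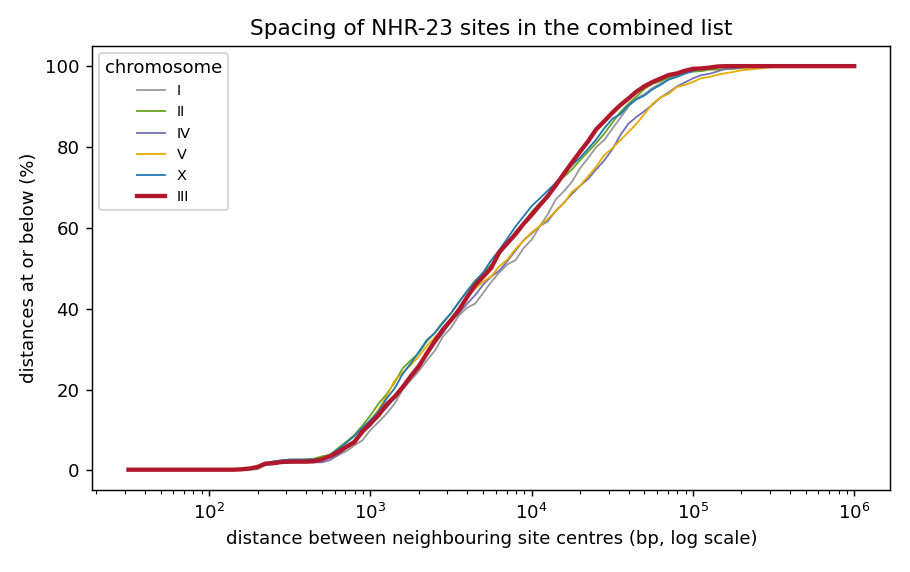
Cumulative share (y axis, %) of the distances between neighbouring site centres (x axis, bp, log scale) for each nuclear chromosome in the combined list, chromosome III as the thick line. The curves run together at short distances, where chromosome III has a lower quartile of 1911 bp, and at long ones chromosome III lies to the left of chromosomes IV and V, with an upper quartile of 16697 bp against 26131 and 24942 bp.

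The fullest 20 kb window of chromosome III, opened at the centre of a site, ran from 13709156 to 13729155, close to the right end, and held 11 sites. The fullest windows of the other chromosomes held 11 (IV) to 17 (II). Its best site, from 13720867 to 13721397, had combined number 816 and was the only one of the 11 in the strongest group, while the median number in the window was 2297, against 3116 over all sites of the chromosome. All 11 were found in both replicates, whose best 6178 peaks gave 12 and 11 regions there. The fullest 20 kb windows of chromosome III in those lists held 14 and 12, so exactly this window was the fullest in neither.

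Windows of 10 sites followed in 3 places, which differed in strength. The window from 3470603 to 3490602 held no site of the strongest group, and its best had number 1978. The window from 3855033 to 3875032 surrounded the strongest site of the chromosome, yet its median number was 4573 and 2 of its sites were in the strongest group. The window from 8794858 to 8814857 had the most strong sites of these, with 4 of 10 sites in the strongest group, a median number of 2307 and the site of number 38 as its best. Of the next 6 windows, all with 9 sites, the first by position ran from 2628977 to 2648976, in the sparse left part, and its best site had number 523. Windows of 10 kb held at most 8 sites and windows of 50 kb at most 17, again beginning at 8794858.

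Long stretches without a combined site were few. Chromosome III had 7 distances over 100 kb, the fewest of the nuclear chromosomes (11 to 38 elsewhere), though it is also the shortest. The best 6178 peaks of replicates 1 and 2 gave 8 and 6, again the fewest. Of its 137 complete 100 kb steps 3 were empty (2.19%), between the 1.33% of chromosome I and the 2.82% of X; chromosome V had the most (15.8%). The longest distance was 143232 bp, between a strong site from 9125912 to 9126108 (number 689) and a weak one from 9269053 to 9269432 (number 4055). The next were 134078 bp, from the site at 1284618 to that at 1418759, and 132866 bp, from the site at 2172028 to that at 2304849. They were followed by 126370 bp, from 910814 to 1037184, and 117217 bp, from 6488879 to 6606215. Of these 5 stretches 3 lay in the sparse first 3 Mb, and the last crossed the low seventh bin.

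The stretches were not empty in the replicate lists. In replicate 1 they held 13 to 28 regions each, or 9.72 to 23.9 per 100 kb, against 38.9 over the whole chromosome. In replicate 2 they held 5 to 14, or 3.97 to 11.97 per 100 kb, against 32.9. The best number inside them was 3187 in replicate 1 and 4226 in replicate 2, so none of the first 3000 peaks of either replicate lay within. The stretches were chosen for lacking a combined site, and the combined list was made from these replicates. The absence of strong replicate peaks and the lower density in them are therefore partly built in. In the order given above, 6 of 27, 6 of 13, 5 of 28, 3 of 13 and 10 of 28 regions of replicate 1 overlapped a region of replicate 2. Over the whole chromosome this share was 55.8%, which includes the strong peaks that these stretches lack. It was 99.4% for replicate 1 numbers 1 to 1000 and 30.3% for 25001 to 30000, so the shares are not matched for strength. A lower share in stretches chosen for lacking a combined site is also partly built in. Weak regions called in both replicates thus lay inside stretches that the combined list leaves blank.

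Nearly all sites of chromosome III were called in both replicates. By an overlap of at least 1 bp, 1036 of 1050 were found in both (98.7%, 97.8 to 99.3), beside 98.5% of all combined sites and 98.4% on the other nuclear chromosomes (98.0 to 98.8; Fisher's exact test, two-sided, adjusted p = 0.849). The combined list was made from these replicates, so a high share is built in. Of the remaining 14 sites, 11 lacked a peak in replicate 1 and 3 in replicate 2. The best of them was a site of 116 bp from 6710083 to 6710198 (combined number 2053), with number 4012 in replicate 2 and no counterpart in replicate 1. The site from 8250313 to 8250464 (2109) had number 1436 in replicate 1 alone. They were followed by sites from 5089470 to 5089849 (3471) and from 4491465 to 4491561 (3957), both in replicate 2 alone, and from 10214540 to 10214678 (4261), in replicate 1 alone. None of the 14 had a number below 2053, and 7 were narrower than the common width.

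Over the 1036 sites found in both replicates, the replicate numbers tended to rise together, with a Spearman rho of 0.641. This rho describes sites of 1 pair of lists and has no test. The sites had entered a combined list made from these replicates, so it does not by itself measure how well the replicates agree. On the other chromosomes it ran from 0.603 to 0.657. The 100 strongest sites of chromosome III, up to combined number 523, were all within the first 948 peaks of replicate 1 and the first 1044 of replicate 2, although the combined number that chose them was itself made from these lists. The numbers lay within 2-fold of each other for 688 sites (66.4%), against 66.1% of all such combined sites, and this share was 68.6%, 68.7%, 63.9% and 64.4% from the strongest to the weakest group. The better number was split almost evenly: 519 sites had it in replicate 1 (50.1%, against 45.9 to 50.3% on the other chromosomes), and the median numbers were 3025.5 and 3131.5.

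From the strongest group to the weakest, the counterparts moved down the replicate lists. Both counterparts were within the first 6178 of their lists for 270 of 271 sites in the strongest group (99.6%) and for 51 of 273 in the weakest (18.7%); over all groups this held for 69.0% of the sites, beside 69.5% of all combined sites. The distance between the replicate centres grew from a median of 15 bp through 21 and 37 to 55 bp. Within the strongest group the replicate numbers rose together (Spearman rho 0.643), and within the others they ran in opposite directions (-0.36, -0.56 and -0.51). The groups are bands of the combined number, which was itself made from these lists. A correlation within such a band therefore does not measure how well the replicates agree. The reason for the change of direction was not tested. The other chromosomes had values of 0.540, -0.35, -0.48 and -0.49.

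**Figure D4:**
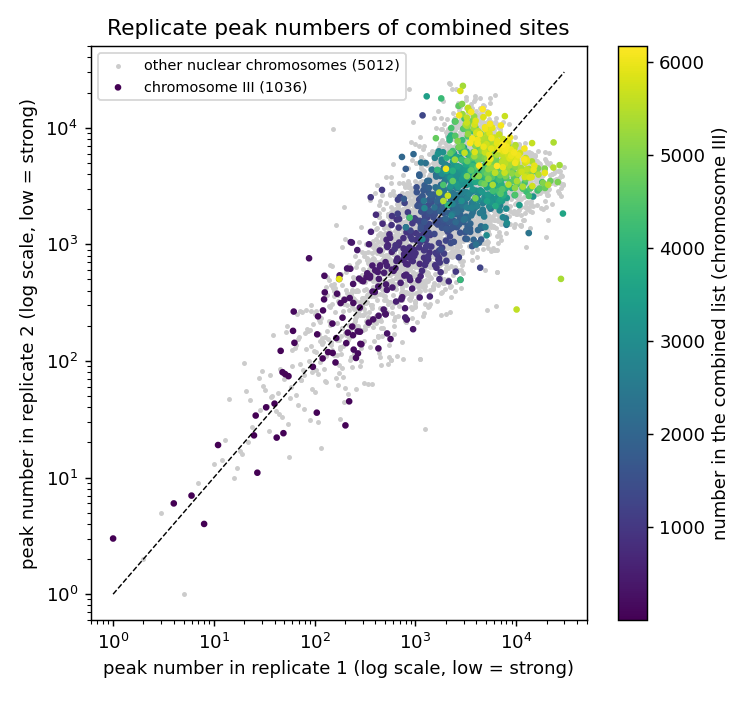
Peak number in replicate 1 (x axis) and replicate 2 (y axis), both on log scales with strong at the low end, for combined sites found in both: 1036 of chromosome III coloured by combined number and 5012 of the other nuclear chromosomes in grey, with a dashed line where the numbers are equal. Sites of chromosome III lie among those of the other chromosomes along the line, 66.4% of them within 2-fold of it, and a few weak ones have a number over 20000 in 1 replicate and below 5000 in the other.

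The sites that disagreed most, by the difference between their 2 replicate numbers, were weak in the combined list. A large difference needs a high number in 1 replicate, and the combined number was made from both lists, so this is partly built in. In the strongest group, the site with combined number 1313 had number 1177 in replicate 1 and 12751 in replicate 2. Its replicate 1 peak also overlapped a replicate 2 peak of number 1246, which no combined site overlapped. The number 12751 therefore need not be its own, and this site does not show that strong sites disagreed. The largest difference was at the site from 6303320 to 6303530 (combined number 5367), with number 27805 in replicate 1 and 505 in replicate 2. Its replicate 2 peak, from 6303124 to 6303352, was also the counterpart of a neighbouring combined site of number 435, so the low number need not be its own. In all, 40 sites of chromosome III (3.81%, against 4.83% on the other chromosomes) shared a replicate peak with another combined site, and without them the correlation was 0.642. The site from 8443476 to 8443855 (number 3632) shared none, and had number 29080 in replicate 1 and 1835 in replicate 2, with replicate centres 35 bp apart. The sites from 910814 to 911193 and from 4612574 to 4612953 likewise stood far better in replicate 2 (3417 and 4772) than in replicate 1 (25871 and 26953). The reverse was seen at the site from 8578234 to 8578613, number 2957 in replicate 1 and 22831 in replicate 2.

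The replicate lists were then searched for peaks of chromosome III that the combined list left out. Of the regions among the first 1000 peaks, 175 of 176 in replicate 1 and 178 of 178 in replicate 2 overlapped a combined peak, beside 800 of 805 and 804 of 807 on the other nuclear chromosomes. The exception, from 6464201 to 6464584 with number 828 in replicate 1, had no counterpart in replicate 2 either. The next such peaks of replicate 1 lay from 8937520 to 8937903 (number 1722), from 9331012 to 9331395 (2161), from 356655 to 357038 (2162) and from 4689552 to 4689935 (2251), and of these the peak at 356655 alone had a replicate 2 counterpart, with number 23444. In replicate 2 all 5 of the best omitted peaks overlapped a replicate 1 peak. They lay from 3786602 to 3786722 (number 1246, and 1177 in replicate 1), from 5068923 to 5069044 (1336 and 3202), from 8144524 to 8144887 (2487 and 3809), from 9848013 to 9848376 (2634 and 3507) and from 9868031 to 9868394 (2664 and 2514). The replicate 1 peak matched to the first of them was also the counterpart of combined site 1313.

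Further down the lists, fewer replicate peaks were kept or shared, on chromosome III and elsewhere. Of replicate 1 peaks numbered 4001 to 6000, 60.2% overlapped a combined peak and 87.4% a replicate 2 peak (61.3% and 89.98% on the other nuclear chromosomes). Of those numbered 25001 to 30000, the shares were 2.71% and 30.3% (2.72% and 29.4% elsewhere). In replicate 2 the shares for numbers 4001 to 6000 were 72.1% and 90.7% (68.2% and 86.7% elsewhere), and for 20001 to 25000 they were 2.87% and 44.8% (2.59% and 41.9%). Over the whole lists, 55.8% of the replicate 1 regions of chromosome III overlapped replicate 2 (54.5 to 57.2), and 65.2% in the other direction (63.8 to 66.6). On the other nuclear chromosomes these shares were 55.7% and 65.4%, inside the intervals of chromosome III.

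A region that stood out by its extent lay from 7814261 to 7816929. At 2669 bp it was the widest site of the chromosome, and the combined list gave it 3 times, with numbers from 1566 to 4274. Replicate 1 gave it number 1048 and replicate 2 number 2135, with centres 1 bp apart. The next in width were 989 bp, from 8801296 to 8802284 (number 148), and 687 bp, from 4281905 to 4282591 (number 56). In all, 6 regions of chromosome III were listed more than once, which made up the 7 rows dropped. The choice of these wide regions followed from their values.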

How the data were processed

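Peak lists of ChIP replicates 1 and 2 and their combined list were used, with positions on WormBase WS220 per the file headers. The second column of the deposited lists names SPP, a peak caller, followed by IDR, which compares peak ranks between replicates. For the versions, settings, read depth and way of merging, the sources used here give nothing. The score per peak is the authors', on an unstated scale, and was not used; the running peak number gave the order. Columns without a sample numbered 0.

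Repeated regions were reduced to 1 with the best number. Overlap meant at least 1 bp, and a counterpart was the best-numbered overlapping peak. Each chromosome was taken to end at the final base of its last peak. Densities were compared with exact binomial tests and shares with Fisher's exact test, adjusted over 5 tests (Benjamini-Hochberg, threshold 0.05); 95% intervals are exact (Clopper-Pearson) and cover counting error only. Calculations were tested on simulated lists. Sites named were the 20 strongest, the 5 fullest windows, the ends of the 5 longest gaps, the 5 most discordant, the 5 best found in 1 replicate and the 5 best peaks of each replicate without a combined counterpart. Members, tests and lists were chosen with earlier results of these data known. Alternatives were other overlap rules, single-replicate lists, the better 50%, merged peaks, other distances and cut-offs and, added after the data were seen, whole replicate lists and the background without X. Gene names could not be given, as the gene table used here follows another build. Versions were 1.17.1 of scipy, 2.3.3 of pandas, 2.4.6 of numpy and 3.10.9 of matplotlib, under Python 3.11.15.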

Additional observations from a re-analysis of the deposited data

How the results depend on the processing

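Of 34 alternatives over 7 results, 24 kept the direction and the call, or the value within its limit, and 6 turned the direction of a difference that did not pass the test either way. The share with a neighbour within 1 kb, which differed by -0.18 percentage points on chromosome III as reported, was higher by 2.84 and 2.01 points without replicates 1 and 2, by 2.42 in the better-numbered 50% and by 0.20 with overlapping peaks merged. The difference in the share found in both replicates was -0.11 points with centres within 100 bp, and that in the share among the strongest was -0.34 points for the strongest 50%. The central density ratio was 1.06 with all peaks of replicate 1 and lost its call. The longest distance between neighbouring sites was 267398 bp in the better-numbered 50% of the combined list, which holds fewer sites, and 173061 to 212161 bp when either replicate was left out, for which the cause was not tested. The density ratio ran from 1.27 to 1.37 or 1.38 over single-replicate lists and was 1.36 without X. Requiring 50% reciprocal overlap lowered the share found in both replicates to 76.0%, and requiring centres within 100 bp lowered it to 90.2%. No paired analysis was possible because the only group with lists is ChIP, so there is no second group to pair by replicate number. Genes by site were left out, since no annotation of build WS220 was used here. Since the number of reads is unknown, a site absent from a list may only be below its limit, and sites cluster, so p-values that take them as independent may be too small.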
